A study of Mus musculus with 6 samples.

Results

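The transcripts of 8 genes were examined, which encode the cyclins of the G1 phase of the cell cycle and the kinases they activate. They are the D-type cyclins Ccnd1, Ccnd2 and Ccnd3, their kinases Cdk4 and Cdk6, the E-type cyclins Ccne1 and Ccne2, and their kinase Cdk2. They were chosen by gene symbol from the 35976 genes in the tables, and all 8 were among the 17348 genes with enough counts to be tested. RNA-seq libraries of cultured satellite cells (SCs), the stem cells of skeletal muscle, were compared between 3 NF-YAcKO and 3 NF-YAfl/fl samples. NF-YAcKO mice carry floxed alleles of Nfya, the gene of the DNA-binding subunit of the CCAAT-binding factor NF-Y, together with a Pax7-CreERT2 driver, so that tamoxifen removes part of the gene in cells that express Pax7. NF-YAfl/fl mice carry the floxed alleles without Cre and were also given tamoxifen (20 mg/ml). The mice were 5 to 7 weeks old per the labels. The cells were enriched by magnetic depletion of cells with endothelial, blood cell, macrophage and Sca1 antigens, then grown in medium with serum and FGF-2. It is not stated whether each library came from a separate mouse, so that p-values measure the spread between these libraries.

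In a cell that leaves quiescence, growth factors induce D-type cyclins, which bind Cdk4 or Cdk6. These complexes begin the phosphorylation of the retinoblastoma protein and its relatives, which releases E2F factors. E2F factors switch on the E-type cyclins and the genes of DNA replication, and the complex of an E-type cyclin with Cdk2 drives the entry into S phase. In muscle, Ccnd1 is known as a cyclin of proliferating myoblasts, and Ccnd3 is the D-type cyclin that is induced as myoblasts leave the cycle and differentiate.

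NF-Y binds the sequence CCAAT, and TTTNNCGC, where N is any base, is a loose form of the site of E2F factors. A match to it need not be a sequence that E2F factors bind. Exact matches to both on either strand were looked for in the promoters of these genes. RefSeq promoters (GRCm38.p6, 250 bases before to 50 after the start site) were at hand for 5 of the 8 genes, in 6 entries, as Ccnd3 has an upstream and a downstream start. Ccnd1, Ccnd2 and Ccne2 were not analysed here. A match to CCAAT was found in 12289 (37.4%) of all 32851 promoters in the same table, and a match to TTTNNCGC in 5.17%. Of the 6 entries, CCAAT matches were in the Cdk2 promoter, 45 bases before the start site, and in the downstream Ccnd3 promoter, 108 bases before it. TTTNNCGC matches were in the Cdk2 promoter, at 140 bases and on the opposite strand, and in the Cdk6 promoter, at 198 bases. The upstream Ccnd3 promoter and those of Ccne1 and Cdk4 held neither. The matches are shown in capitals in the strand of the gene, for Cdk2 (chr10:128705062-128705221, minus strand), Ccnd3 (chr17:47593329-47593393, plus strand) and Cdk6 (chr5:3343665-3343732, plus strand), and are descriptions of the letters only.
Cdk2 promoter: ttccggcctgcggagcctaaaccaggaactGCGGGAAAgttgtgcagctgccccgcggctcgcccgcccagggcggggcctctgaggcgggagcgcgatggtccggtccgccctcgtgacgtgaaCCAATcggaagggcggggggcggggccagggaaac
Ccnd3 promoter: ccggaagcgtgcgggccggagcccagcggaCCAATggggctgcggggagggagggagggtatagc
Cdk6 promoter: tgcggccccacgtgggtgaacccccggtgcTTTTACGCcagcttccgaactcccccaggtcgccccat

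Several properties of the libraries bear on all values below. Total expected counts ranged from 26936230 to 41118984. Levels are given as CPM, counts scaled to the size of each library after TMM normalization, and as TPM where genes are compared with each other. An entry for the deleted Nfya allele stands in the tables. It took 22.3% to 34.2% of the expected counts of Nfya in NF-YAcKO and 0 counts in each NF-YAfl/fl library. The other Nfya entries together were at 17.8 to 21.0 CPM in NF-YAcKO and 23.4 to 36.9 CPM in NF-YAfl/fl, and the whole gene overlapped between the genotypes (26.98 to 28.5 and 23.4 to 36.9 CPM), so that most Nfya reads of the NF-YAcKO libraries were not assigned to the deleted form. Xist was at 836 to 852 CPM in NF-YAcKO and at 0.306 to 0.475 CPM in NF-YAfl/fl, and the Y-linked Ddx3y at 3 counts or fewer in NF-YAcKO and at 80.9 to 88.6 CPM in NF-YAfl/fl, so that sex and genotype cannot be told apart, although male mice are described in the study's methods.
Among markers of cell types, the 6 genes of satellite cells and myoblasts summed to 1273 to 1381 CPM in NF-YAcKO and 1094 to 2502 CPM in NF-YAfl/fl, with 2 that rose and 2 that fell (Myod1, 567 and 601 CPM on average, and Itga7, 266 and 631 CPM, were the most abundant). The 11 genes of differentiated muscle, led by Ttn (944 and 37274 CPM) and Myh3 (15.2 and 4162 CPM), summed to 623 to 1407 CPM in NF-YAcKO and 43851 to 53125 CPM in NF-YAfl/fl, and all 11 fell. The 10 macrophage genes, led by Lyz2 (165 and 4.08 CPM) and Ctss (24.7 and 0.662 CPM), summed to 144 to 284 and 5.87 to 15.8 CPM, and 9 of them rose. Fibro-adipogenic progenitor genes (led by Pdgfra, 88.5 and 100.1 CPM, and Dcn, 72.4 and 22.1 CPM) summed to 228 to 255 CPM in NF-YAcKO and 56.0 to 338 CPM in NF-YAfl/fl, and pericyte and smooth muscle genes (led by Pdgfrb, 107 and 212 CPM, and Cspg4, 134 and 167 CPM) to 213 to 307 and 153 to 559 CPM, in both cases with NF-YAfl/fl replicate 3 lowest. Of these, 2 of 6 progenitor genes rose and 1 of 4 pericyte genes fell. Endothelial genes (led by Kdr, 8.20 and 1.29 CPM, and Cdh5, 2.74 and 2.43 CPM) summed to at most 17.7 CPM in any library, and 2 of 4 tested genes rose. The Schwann cell genes Sox10 (3.97 and 1.24 CPM) and S100b (3.14 and 1.25 CPM) also rose. In bulk RNA a change in the number of cells of a type and a change in RNA per cell cannot be told apart, and the part of these cell types in the results below was not tested.

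Of the 8 genes, 4 rose and 2 fell in NF-YAcKO at an FDR under 0.05 in edgeR's quasi-likelihood test, and Cdk2 and Cdk6 did not pass. Ccnd1, Cdk4, Ccne1 and Ccne2 were higher and Ccnd2 and Ccnd3 lower, in each case with every NF-YAcKO library beyond every NF-YAfl/fl library. Over all tested genes, 19.7% rose and 18.9% fell at this FDR, and 29.1% and 26.2% were without overlap in the same directions, with a median log2 fold change of -0.02. At stricter thresholds, an FDR under 0.01 with a change past 1 or -1 on the log2 scale, Ccnd1, Ccne1 and Ccne2 were called higher, where 4.65% of all tested genes were, and 0 of the 8 were called lower, where 7.67% were. At an unadjusted p under 0.05, 2 of the 8 were lower, again Ccnd2 and Ccnd3, and DESeq2 called 1 lower, Ccnd3. None of the 3 calls held when any 1 of the NF-YAcKO libraries or NF-YAfl/fl replicate 1 was left out (FDR 0.0159 to 0.047). Without NF-YAfl/fl replicate 3 Ccne2 was the 1 gene called higher, and without NF-YAfl/fl replicate 2 or 3 Ccnd3 was called lower.

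**Figure D1:**
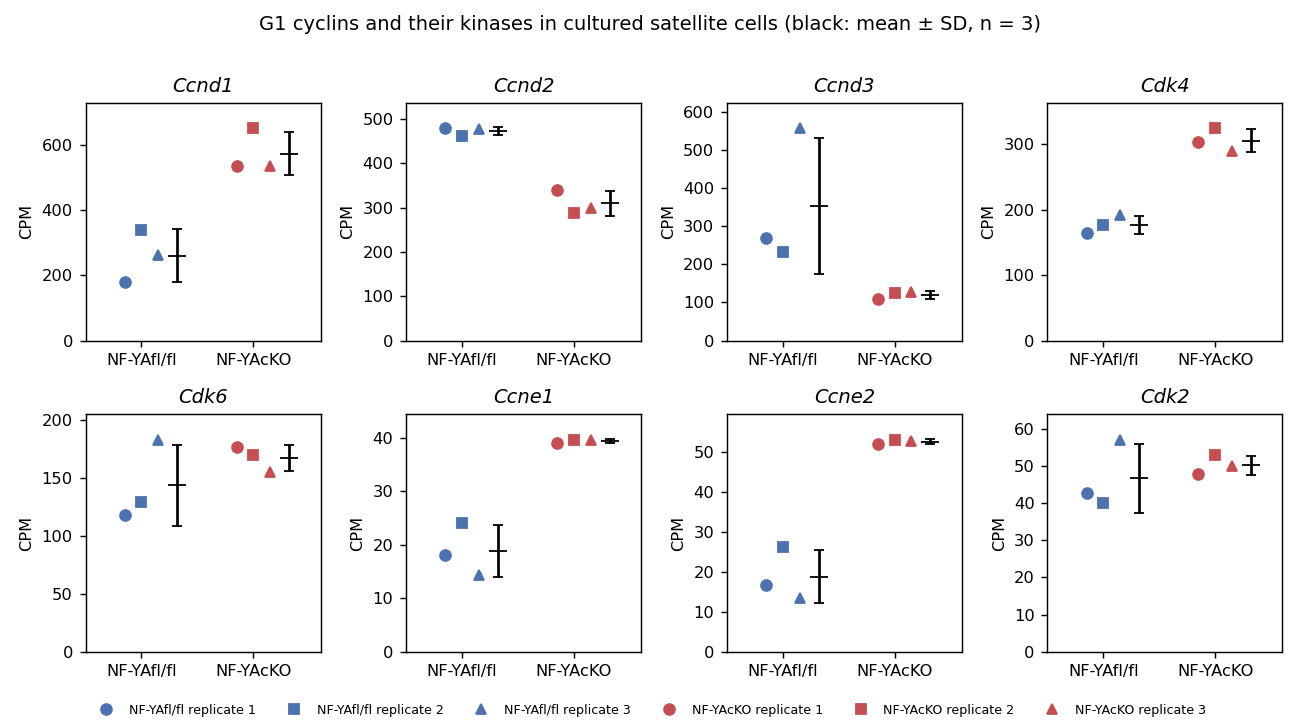
Level in CPM (linear axis from 0) of each of the 8 genes in each library, with NF-YAfl/fl in blue and NF-YAcKO in red, a symbol per replicate and the mean ± SD (n = 3) in black. The libraries of the genotypes are apart for 6 genes and overlap for Cdk6 and Cdk2, and NF-YAfl/fl replicate 3 is the highest control library for Ccnd3, Cdk4, Cdk6 and Cdk2.

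Ccnd1 lies on chromosome 7 of GRCm38 (144929931 to 144939925, minus strand). Its level was 535, 651 and 534 CPM in NF-YAcKO replicates 1 to 3 and 179, 340 and 263 CPM in NF-YAfl/fl replicates 1 to 3. Every NF-YAcKO library was above the highest NF-YAfl/fl library. The mean was 573 ± 67.1 CPM against 261 ± 80.8 CPM (SD, n = 3), and Ccnd1 rose by 1.14 on the log2 scale (standard error 0.23, FDR = 0.00937, edgeR). The 95% interval of 0.59 to 1.69 holds values on both sides of the threshold of 1. Without NF-YAfl/fl replicate 1, the lowest library, the log2 fold change was 0.92 (FDR = 0.0159), and Ccnd1 was called in 6 of 16 alternatives.

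Ccnd2, a D-type cyclin expressed in many dividing tissues, lies on chromosome 6 (127125162 to 127152193, minus strand) and was lower in NF-YAcKO. It was at 341, 288 and 299 CPM in the NF-YAcKO libraries and at 479, 462 and 478 CPM in the NF-YAfl/fl libraries. In CPM the control libraries lay close together, with a coefficient of variation of 2.06%, the smallest of the 8 genes in this genotype. In TPM it was 16.8%, and that of Cdk2 was smallest (6.03%). The means were 309 ± 27.6 and 473 ± 9.74 CPM, and Ccnd2 fell by 0.61 on the log2 scale (standard error 0.10, FDR = 0.0041), short of the size that a call requires.

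Ccnd3 lies on chromosome 17 (47505051 to 47599691, plus strand) and had the largest decrease of the 8 genes. In NF-YAcKO it was at 108, 124 and 127 CPM. In NF-YAfl/fl it was at 269, 232 and 557 CPM, so that all control libraries were above all NF-YAcKO libraries and replicate 3 stood far above the other controls. The mean fell from 353 ± 178 to 120 ± 10.03 CPM, or by 1.56 on the log2 scale (standard error 0.33, 95% interval -2.33 to -0.78). Its FDR of 0.0102 was just outside the threshold of 0.01 for a call. Without NF-YAfl/fl replicate 3 the decrease was smaller and its FDR lower, with a log2 fold change of -1.07 (FDR = 0.000447). The same library was also highest in Myod1, at 1146 CPM against 361 and 295 CPM in replicates 1 and 2, and in Cdkn1a, the p21 inhibitor induced as myoblasts leave the cycle, at 668 CPM against 320 and 195 CPM. Its sum of the differentiated muscle genes, 46870 CPM, lay between those of replicates 1 (53125 CPM) and 2 (43851 CPM). Of these, named after their values were seen, Myog and Tmem8c were highest of the controls in replicate 3. Myh3, Ckm, Tnnt3, Tnnc2 and Mylpf were lowest there. The part of all these genes in the level of Ccnd3 was not tested.

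Cdk4, the kinase bound by all D-type cyclins, lies on chromosome 10 (127063534 to 127067920, plus strand). It was at 303, 324 and 289 CPM in the NF-YAcKO libraries and at 164, 177 and 191 CPM in the NF-YAfl/fl libraries. The genotypes were far apart relative to the spread within each, and the FDR was the lowest of the 8 genes. The mean rose from 177 ± 13.7 to 306 ± 17.6 CPM, or by 0.79 on the log2 scale (standard error 0.10, FDR = 0.00169), whose 95% interval of 0.55 to 1.02 lies almost wholly under 1.

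Cdk6, the other kinase of D-type cyclins, lies on chromosome 5 (3341485 to 3531008, plus strand). Its level was 176, 170 and 155 CPM in NF-YAcKO and 118, 129 and 183 CPM in NF-YAfl/fl. In CPM NF-YAfl/fl replicate 3 was the highest of all 6 libraries, and the other controls were below all NF-YAcKO libraries. In TPM NF-YAcKO replicate 1 was highest (17.59). There NF-YAfl/fl replicates 2 and 3 (15.48 and 15.03) were above NF-YAcKO replicates 2 and 3 (14.42 and 14.97). On the log2 scale the difference was 0.22 (standard error 0.17, FDR = 0.343), with a 95% interval from -0.19 to 0.63. Without NF-YAfl/fl replicate 3 it was 0.43 and passed (FDR = 0.00685).

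Ccne1, one of the cyclins that activate Cdk2, lies on chromosome 7 (38097984 to 38107534, minus strand). It was at 39.1, 39.6 and 39.7 CPM in the NF-YAcKO libraries and at 18.2, 24.1 and 14.3 CPM in the NF-YAfl/fl libraries. The NF-YAcKO libraries were nearly equal in CPM, with a coefficient of variation of 0.865%, and all were above all controls, whose coefficient of variation was 26.3%. In TPM the coefficients were 7.84% and 45.0%. The means were 39.5 ± 0.341 and 18.9 ± 4.95 CPM, and Ccne1 rose by 1.06 on the log2 scale (standard error 0.19, FDR = 0.00548). Without NF-YAfl/fl replicate 3, the lowest library, it was 0.89 (FDR = 0.00197).

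Ccne2, the other E-type cyclin, lies on chromosome 4 (11191351 to 11204779, plus strand) and had the largest increase of the 8 genes. It was at 52.1, 53.2 and 52.7 CPM in NF-YAcKO and at 16.7, 26.3 and 13.5 CPM in NF-YAfl/fl. Among the controls the order was that of Ccne1, with replicate 2 highest and replicate 3 lowest. The mean rose from 18.8 ± 6.66 to 52.7 ± 0.555 CPM, or by 1.49 on the log2 scale (standard error 0.24, 95% interval 0.92 to 2.05, FDR = 0.00381).

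Cdk2, the kinase of the E-type cyclins, lies on chromosome 10 (128697939 to 128705031, minus strand). It was at 47.7, 52.9 and 49.9 CPM in NF-YAcKO and at 42.9, 40.0 and 57.1 CPM in NF-YAfl/fl. In CPM the genotypes overlapped, again through NF-YAfl/fl replicate 3, which was the highest of all libraries. In TPM NF-YAcKO replicate 1 was highest (26.3), and NF-YAfl/fl replicates 2 and 3 (26.1 and 25.7) both lay within the range of NF-YAcKO. On the log2 scale the difference was 0.11 (standard error 0.15, FDR = 0.601), with a 95% interval from -0.24 to 0.46. Without NF-YAfl/fl replicate 3 it was 0.27 (FDR = 0.0327), and without replicate 2 it was -0.00 (FDR = 0.986).

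**Figure D2:**
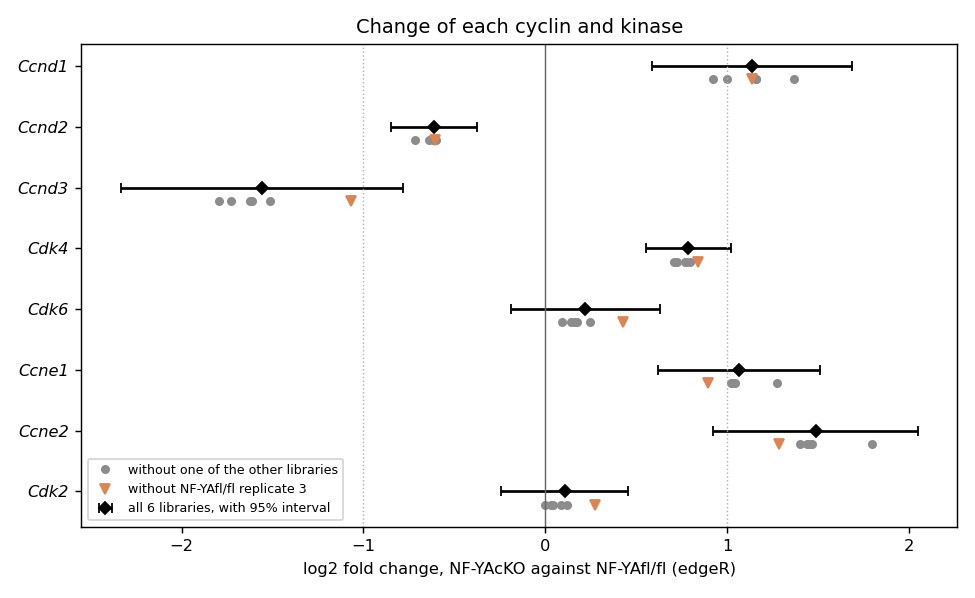
Log2 fold change of each gene, NF-YAcKO against NF-YAfl/fl, from edgeR with all 6 libraries (black diamonds with the 95% interval) and with each library left out in turn (grey circles, and orange triangles for NF-YAfl/fl replicate 3). The 6 genes that passed stay on their side of 0 whichever library is left out, and Ccnd3 moves most, from -1.56 to -1.07 without NF-YAfl/fl replicate 3.

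Each of these genes apart from Ccne1 overlaps another gene in the GENCODE annotation (vM21), always on the opposite strand. The strand setting of the authors' counting is not given in the sources used here, so that reads of overlapping exons may have been counted for either gene. The shared bases below span whole genes, introns included, and their part in exons was not measured. Of the partners with values in the tables, Ints8 (over Ccne2, 5622 bases shared) was at 75.6 ± 2.44 CPM in NF-YAcKO and 65.4 ± 6.44 CPM in NF-YAfl/fl, and Tspan31 (over Cdk4, 641 bases) at 77.1 ± 4.78 and 76.9 ± 3.25 CPM. Bysl, which shares 361 bases with the end of Ccnd3, rose by a log2 fold change of 0.34 (FDR = 0.0344), opposite to Ccnd3. The partner of Ccnd1 (LTO1, listed as Oraov1) was at 8.19 ± 0.582 and 10.2 ± 2.91 CPM, and those of Cdk2 (Pmel) and Ccnd2 (9330179D12Rik) were under 1 CPM.

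TPM values, in which counts are divided by transcript length, allowed the genes to be ordered by level. In NF-YAfl/fl Ccnd3 was first (232 ± 72.5 TPM), followed by Cdk4 (172 ± 30.7), Ccnd2 (91.2 ± 15.3), Ccnd1 (83.4 ± 39.0), Cdk2 (25.1 ± 1.51), Cdk6 (14.0 ± 2.11), Ccne1 (12.4 ± 5.58) and Ccne2 (8.29 ± 4.55). The ranges of Ccnd3 and Cdk4 overlapped, as did those of Ccnd2 and Ccnd1, of Cdk6 and Ccne1, and of Ccne1 and Ccne2. In NF-YAcKO Cdk4 was first (279 ± 14.6 TPM) and Ccnd1 second (167 ± 5.87), followed by Ccnd3 (77.7 ± 6.34), Ccnd2 (56.1 ± 9.05), Cdk2 (25.7 ± 0.820), Ccne1 (23.5 ± 1.84), Ccne2 (20.8 ± 1.51) and Cdk6 (15.7 ± 1.69). Of these neighbours, the ranges of Cdk2 and Ccne1, and of Ccne1 and Ccne2, overlapped. Cdk6 was thus the lowest of the 8 genes per length in NF-YAcKO, although it had more counts than Cdk2 or the E-type cyclins; its transcript of 11525 nt is the longest.

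The most abundant D-type cyclin differed between the genotypes, Ccnd3 in NF-YAfl/fl and Ccnd1 in NF-YAcKO. Ccnd1 made up 54.4%, 58.9% and 53.4% of the D-type cyclin TPM in NF-YAcKO replicates 1 to 3 and 16.5%, 29.8% and 14.7% in NF-YAfl/fl replicates 1 to 3. Ccnd3 made up 24.3%, 25.0% and 28.1% in NF-YAcKO and 56.2%, 45.3% and 68.8% in NF-YAfl/fl. For both shares the genotypes did not overlap, with a mean difference of 35.2 percentage points for Ccnd1 and -30.9 for Ccnd3 (exact permutation test, two-sided, p = 0.1 for each, 0.125 after adjustment over 5 shares). With 3 libraries against 3, 0.1 is the smallest p that this test can give. The share of Ccnd2 was 18.6% ± 2.59 in NF-YAcKO and 22.9% ± 5.64 in NF-YAfl/fl, with overlap between the genotypes (exact permutation test, p = 0.3). The sum of the D-type cyclins, looked at after these shares were seen, was 301 ± 6.84 TPM in NF-YAcKO and 407 ± 66.1 TPM in NF-YAfl/fl, with all NF-YAcKO libraries lower (exact permutation test, p = 0.1). This separation depends on the measure, as the genotypes overlapped in the sum of CPM.

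**Figure D3:**
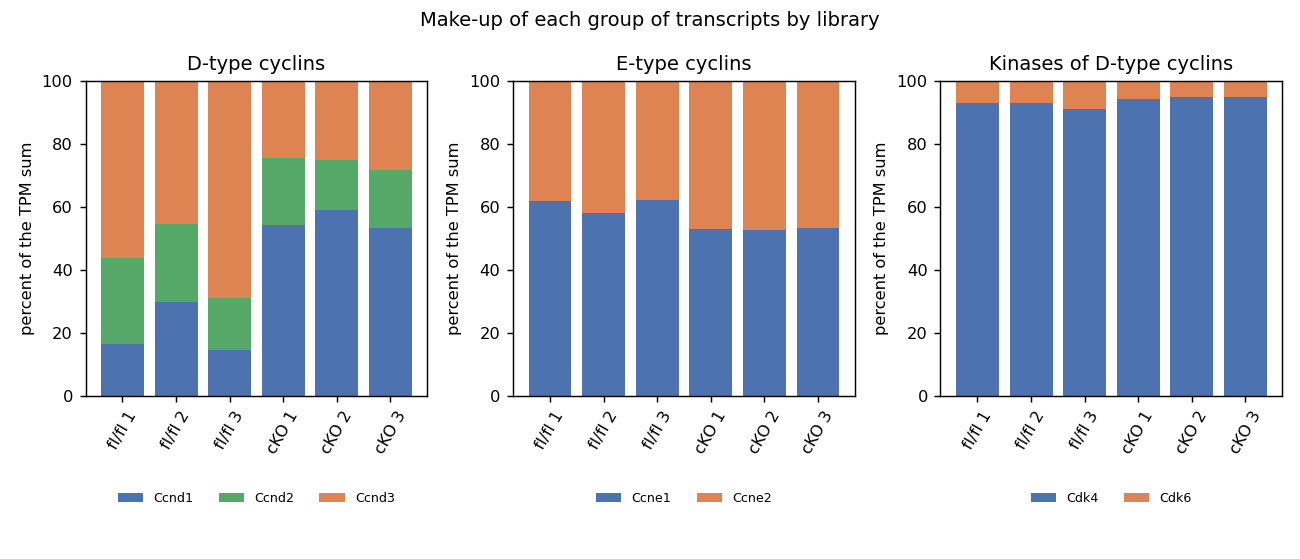
Percent of the TPM sum of each group of genes (linear axis from 0 to 100) in each library, for the D-type cyclins, the E-type cyclins and the kinases of D-type cyclins. Ccnd1 takes 53.4% to 58.9% of the D-type cyclin TPM in the NF-YAcKO libraries and 14.7% to 29.8% in the NF-YAfl/fl libraries. Ccnd3 takes 24.3% to 28.1% and 45.3% to 68.8%, and the shares of the other genes differ by less.

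Within the E-type cyclins the balance moved towards Ccne2. The Ccne1 share was 52.9%, 52.8% and 53.5% in NF-YAcKO and 62.0%, 58.0% and 62.1% in NF-YAfl/fl, a mean difference of -7.64 percentage points with no overlap (exact permutation test, p = 0.1). The sum of both E-type cyclins was 44.4 ± 3.34 TPM in NF-YAcKO and 20.7 ± 10.1 TPM in NF-YAfl/fl. Cdk4 made up nearly all of the TPM of the kinases of D-type cyclins in both genotypes, 94.7% ± 0.277 in NF-YAcKO and 92.4% ± 1.21 in NF-YAfl/fl, again with no overlap (exact permutation test, p = 0.1). The sum of Cdk4 and Cdk6 was 294 ± 16.2 TPM in NF-YAcKO and 186 ± 31.8 TPM in NF-YAfl/fl.

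The tables split the 8 genes into 26 transcripts, and 18 of them made up at least 5% of their gene in either genotype. Ccne1 and Cdk6 have 1 transcript each. Of the 18, the genotypes were apart in the share of 1, a Ccnd3 transcript of 1682 nt (XM_006523552.1), which was 6.93%, 6.46% and 5.10% of the gene's TPM in NF-YAcKO and 3.18%, 1.32% and 1.99% in NF-YAfl/fl (exact permutation test, p = 0.1, 0.9 after adjustment over the 18). Its own level was alike, at 4.75 ± 0.425 and 4.93 ± 2.06 TPM, while that of the main Ccnd3 transcript (NM_007632.2) was 39.1 ± 4.51 TPM in NF-YAcKO and 115 ± 42.3 TPM in NF-YAfl/fl. The main transcript starts at the downstream promoter, whose CCAAT match is shown above. The transcripts with a known start at the upstream promoter (NM_001081635.1 and NM_001081636.1) each stayed at 0.2% of the gene or less in every library. No start site was at hand for the other Ccnd3 transcripts, among them XM_011246262.1 with 33.7% ± 3.51 in NF-YAcKO and 34.8% ± 2.30 in NF-YAfl/fl. The split of Ccnd3 between its promoters is therefore not known here.

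Cdk2 is made as a shorter form (NM_016756.4) and a longer one (NM_183417.3), which holds an additional coding exon of 144 bases, or 48 codons, after which the reading frame continues. The exon lies at chr10:128699976-128700119 (GRCm38, minus strand), as exon 6 of 8 in the longer form, and is shown in capitals with 15 bases of each neighbouring exon from the GENCODE transcript.
Cdk2 exon: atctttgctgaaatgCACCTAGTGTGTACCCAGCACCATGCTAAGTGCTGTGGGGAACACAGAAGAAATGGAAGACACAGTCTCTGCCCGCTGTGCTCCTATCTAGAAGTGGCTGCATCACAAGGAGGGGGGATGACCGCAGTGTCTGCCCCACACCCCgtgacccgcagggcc
The longer form made up 23.9%, 18.4% and 24.6% of the Cdk2 TPM in NF-YAcKO and 10.1%, 15.2% and 23.0% in NF-YAfl/fl. The genotypes overlapped through NF-YAfl/fl replicate 3, and the mean difference of 6.15 percentage points was not beyond the spread (exact permutation test, p = 0.2, 0.9 after adjustment). The shorter form was the main one in every library, with 68.8% to 83.7%.
For Ccnd2, a transcript of 6097 nt (XM_006505460.1) was the main one, at 76.2% ± 4.58 in NF-YAcKO and 80.0% ± 4.16 in NF-YAfl/fl, and for Ccnd1 the transcript NM_007631.2 at 91.1% ± 1.37 and 90.4% ± 1.61. The higher level of Ccne2 was spread over several transcripts, led by NM_001282943.1 with 42.0% ± 7.48 and 43.0% ± 7.77 of the gene. Transcripts of a gene share most of their reads, so that these shares are estimates of a split.

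**Figure D4:**
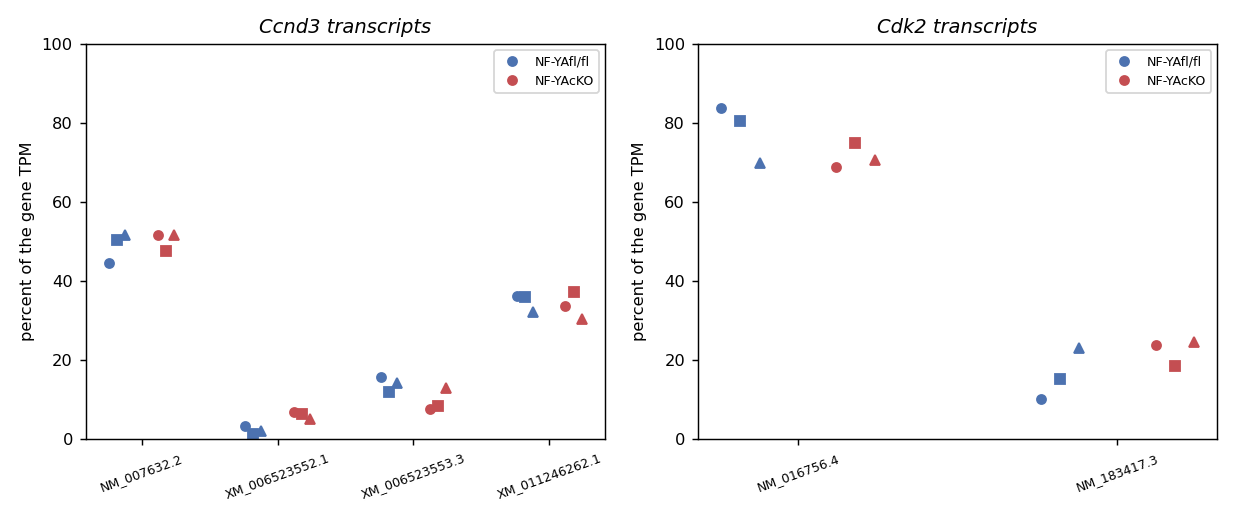
Percent of the gene's TPM (linear axis from 0 to 100) held by each transcript of Ccnd3 and Cdk2 with at least 5% in either genotype, with a point per library in blue for NF-YAfl/fl and red for NF-YAcKO. The genotypes overlap for all but the Ccnd3 transcript XM_006523552.1, and the longer Cdk2 form (NM_183417.3) lies between 10.1% and 24.6%.

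The genes that act with the G1 cyclins were read from 6 lists. In total 33 of their members rose and 4 fell, of 64 tested, where 19.7% and 18.9% of all tested genes did. The first 4 lists below hold few genes each, and counts of 3 of 13 higher or 2 of 7 lower are near these shares. Of 7 inhibitors of cyclin-dependent kinases, 0 rose and 2 fell (median log2 fold change of the list -0.24). At an unadjusted p under 0.05 in edgeR 0 rose and 3 fell, as also by DESeq2 at an FDR under 0.05. The 2 that fell were Cdkn1c (log2 fold change -3.58, FDR = 0.000422) and Cdkn1a (-2.55, FDR = 0.00465), which encode inhibitors of the Cip/Kip family. Cdkn1b and the inhibitors specific for Cdk4 and Cdk6 (Cdkn2a, Cdkn2b, Cdkn2c and Cdkn2d) did not pass, with log2 fold changes from -0.49 to 0.53.

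Of 13 pocket proteins, E2F factors and their DP partners, the substrates and effectors of the G1 kinases, 3 rose and 1 fell (median -0.06). Rb1, the retinoblastoma protein, fell from 111 ± 26.98 to 32.1 ± 4.02 CPM (log2 fold change -1.79, FDR = 0.00101), whereas Rbl1, its relative p107, rose from 25.7 ± 6.82 to 49.4 ± 0.869 CPM (0.94, FDR = 0.00862). E2f5, a repressor E2F, and Tfdp1, the main DP partner, rose by log2 fold changes of 0.71 (FDR = 0.0266) and 0.69 (FDR = 0.0108). The number that rose was 1 without NF-YAcKO replicate 1 or 2 and 5 without NF-YAfl/fl replicate 2, and 2 fell without NF-YAfl/fl replicate 3.
Of 8 genes for kinases, phosphatases and partner subunits that switch cyclin-dependent kinases on or off, 4 rose and 0 fell (median 0.63), and all 8 log2 fold changes were above 0, so that none fell at an unadjusted p under 0.05, and 0 fell by DESeq2. In the fit without NF-YAfl/fl replicate 3, 7 of the 8 rose, whereas with limma on log2(TPM + 1) and log2(TPM + 0.1) 1 and 2 rose. The largest increases were those of Pkmyt1, an inhibitory kinase (log2 fold change 1.07, FDR = 0.00533), and of the activating phosphatases Cdc25c (1.04, FDR = 0.0143) and Cdc25a (0.99, FDR = 0.0029). Of 13 components of the ubiquitin ligases that remove G1 cyclins and their inhibitors, 4 rose and 1 fell (median 0.23). The number that rose was 2 without NF-YAcKO replicate 2 and 7 without NF-YAfl/fl replicate 3, and 3 fell without NF-YAfl/fl replicate 2. Cks1b (1.20, FDR = 0.0017) and Skp2 (1.09, FDR = 0.00218), which together direct the removal of p27, rose most, followed by Rbx1 (0.49, FDR = 0.00822), and Fbxw7, which marks cyclin E for removal, fell from 44.0 ± 5.03 to 27.5 ± 0.961 CPM (log2 fold change -0.68, FDR = 0.00435).

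Genes that act after the G1 cyclins were higher almost throughout. All 5 tested genes of the later cyclins and Cdk1 rose (median log2 fold change 1.27), led by Ccnb1 (1.46, FDR = 0.00185), Cdk1 (1.28, FDR = 0.00281) and Ccna2 (1.27, FDR = 0.00501). Of 18 E2F target genes of DNA replication, 17 rose (median 1.41) and 0 fell, and 0 were lower at an unadjusted p under 0.05 in edgeR or by DESeq2. The largest increases were those of Rrm2, a subunit of ribonucleotide reductase, from 135 ± 49.1 to 441 ± 22.7 CPM (log2 fold change 1.71, FDR = 0.00395), Cdc6, a loading factor of the replicative helicase, from 13.7 ± 3.33 to 43.0 ± 1.80 CPM (1.65, FDR = 0.00109), and Mcm5, a helicase subunit, from 49.6 ± 16.6 to 154 ± 4.09 CPM (1.63, FDR = 0.00228). The gene that did not pass, named after its values were seen, was Tyms (log2 fold change 0.15, FDR = 0.406). The increases of Ccne1 and Ccne2, themselves E2F targets, lay within the range of this list, from 0.15 (Tyms) to 1.71. That range is wide and also held the log2 fold changes of Ccnd1, Cdk4 and Cdk6. The part of E2F factors in these changes was not tested.

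**Figure D5:**
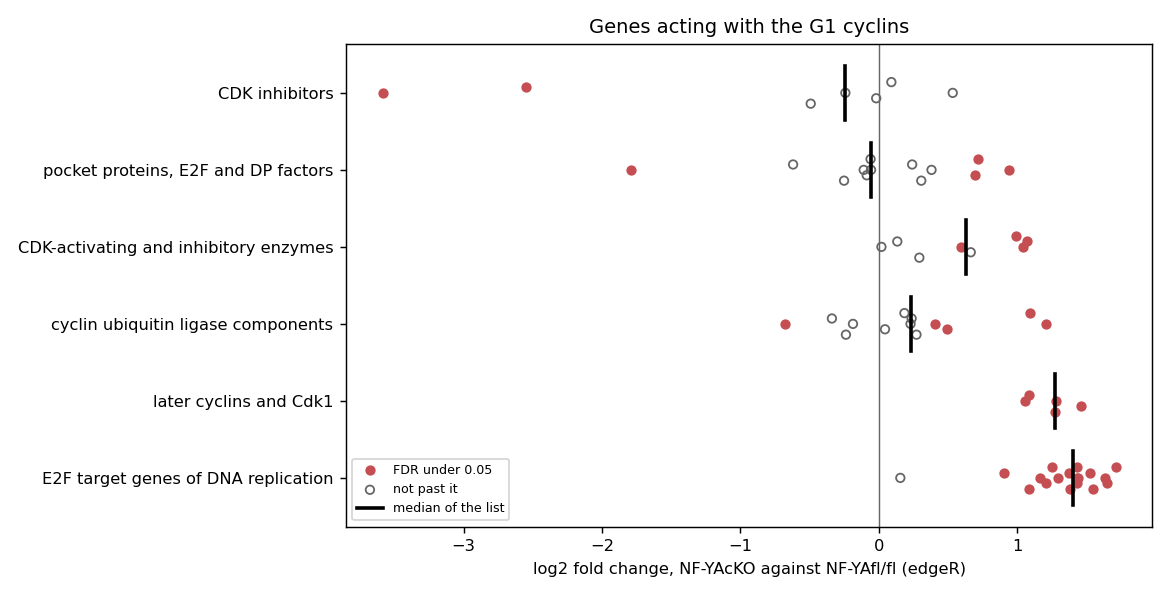
Log2 fold change, NF-YAcKO against NF-YAfl/fl, of each tested gene of the 6 lists (red for an FDR under 0.05 in edgeR, open for the rest), with the median of each list as a black bar. The E2F target genes of DNA replication and the later cyclins lie almost wholly above 0, with medians of 1.41 and 1.27, whereas the pocket proteins, E2F and DP factors lie around 0.

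For each of the 8 genes, the genes with the most similar pattern over the 6 libraries were searched among the 9456 other genes that averaged 10 CPM or more, by the root mean square difference of log2 CPM after centring each gene. For Ccnd1 these were Ncapd2 (difference 0.08) and Lmnb1 (0.12), the largest differences of the 8 genes. For Ccnd2 they were Dnmbp (0.04) and Wdsub1 (0.05), and for Ccnd3 Dopey2 (0.03) and Mycl (0.06). The nearest to Ccne1 were Ckap2l (0.03) and Plk4 (0.04), and to Ccne2 Etv4 (0.06) and Exo1 (0.06). Prmt5 (0.03) and Hmgn1 (0.03) were nearest to Cdk4, Map3k1 (0.04) and Apmap (0.05) to Cdk6, and Taf4 (0.03) and Casc3 (0.03) to Cdk2.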

How the data were processed

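SCs of 3 NF-YAcKO and 3 NF-YAfl/fl samples were compared, and groups and replicate numbers were taken from the labels. Per the labels, libraries were stranded, and the authors used Bowtie2 against the mm10 transcriptome and RSEM for quantification. As deposited, expected counts are estimates that need not be whole and were neither normalized nor filtered by the authors. TPM, also deposited, divides them by effective length and sets one sum per library. The deposited percent of each transcript is its part of the gene's TPM.

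After rounding, a gene was kept if 2 or more libraries held over 10 counts of it, and genotypes were compared with edgeR 4.0.16 (TMM, quasi-likelihood test, genotype only, Benjamini-Hochberg adjustment over 17348 genes) in R 4.3.3. The fit was tested on simulated data with the same spread in both genotypes. In these libraries the coefficient of variation beyond counting noise was 0.31 in NF-YAfl/fl and 0.105 in NF-YAcKO. The simulation did not cover such an unequal spread. Shares were compared with two-sided exact permutation tests. The 8 genes and all lists were chosen with earlier results of these data known. Genes named from a list are, per direction, up to 3 with the largest change among those past an FDR of 0.05 that averaged 1 CPM or more, and for each of the 8 genes the 2 nearest patterns are given. Alternatives were DESeq2 1.42.0, its size factors, upper-quartile and total-count scaling, other filters, limma 3.58.1 on log2(TPM + 1) and log2(TPM + 0.1), counts without rounding, glmTreat, a replicate block and leaving out each library. At these depths 3 counts correspond to 0.073 to 0.111 CPM, so that the spread between libraries limits the comparisons. Coordinates are from GENCODE vM21 (GRCm38), promoters from RefSeq. Plots were drawn with matplotlib 3.10.9. The results of some genes of the Schwann cell list are not reported here.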

Additional observations from a re-analysis of the deposited data

How the results depend on the processing

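The direction of the 6 genes that passed an FDR of 0.05 held in all 16 alternative fits, and they passed in each, apart from Ccne1 with limma on log2(TPM + 1) (FDR = 0.0531). Cdk2 changed sign without NF-YAfl/fl replicate 2 (log2 fold change -0.00327), and Cdk2 (0.27) and Cdk6 (0.43) passed without NF-YAfl/fl replicate 3, which brings the genes that rose from 4 to 6. The calls at the stricter thresholds depended on the fit. Of the 3 genes called higher, 0 were called by limma on log2(TPM + 1), by limma on log2(TPM + 0.1) and by glmTreat, and 0 to 3 when a library was left out. With DESeq2 size factors, upper-quartile scaling and filterByExpr 2 were called, as Ccnd1 was not (FDR = 0.0101, 0.0127 and 0.0108). Ccnd3, not called in the fit with all libraries and TMM, was the 1 gene called lower with DESeq2, DESeq2 size factors, upper-quartile scaling, filterByExpr, no filter and both limma fits, and 0 to 1 genes were called lower when a library was left out. The cause of these changes was not tested.

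In CPM, which is not divided by length, the difference in share was -13.4 percentage points for Ccnd2, -19.5 for Ccnd3 and 8.998 for Cdk4. These had the same directions as in TPM but other sizes (-4.29, -30.9 and 2.29 in TPM). For Ccnd2 the genotypes overlapped in the TPM share and did not overlap in the CPM share. Of the list genes named above, the increases of E2f5, Tfdp1, Cdc25c, Rbl1, Cdc25a and Rbx1 lost an FDR of 0.05 in at least 1 alternative, each with the same sign. Over all 6 lists the number that rose, 33, was 22 and 23 in the limma fits, and 15 of the E2F target genes of DNA replication and 4 of the later cyclins and Cdk1 rose there. Of the pocket proteins, E2F and DP factors 0 rose in both limma fits, against 3. The enzymes that switch cyclin-dependent kinases on or off had 1 and 2 that rose, against 4, and the ubiquitin ligase components 2 in both, against 4. With the replicate number as a replicate block, Ccnd1 (FDR = 0.00764) and Ccne2 (FDR = 0.00649) were still called and Ccne1 was not (FDR = 0.0106). Deviations from the genotype mean correlated at 0.165, -0.0693 and 0.0527 between same-numbered libraries, the first being the largest of all pairings. With 3 libraries per genotype these values cannot settle whether same-numbered libraries share a preparation.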
